A study of Mus musculus with 15 samples.

Results

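The results concern 9 genes of the podocyte actin cytoskeleton, Synpo, Actn4, Actn1, Inf2, Myo1e, Anln, Arhgdia, Palld and Lima1, which were chosen by name and were 9 of 55416 gene identifiers in the count table. Their 60 annotated transcripts were taken from a table of 140789 transcripts. The RNA came from SVI cells, a conditionally immortalised mouse podocyte line that was differentiated and grown on flexible silicone membranes. Poly(A) RNA of 15 samples was sequenced. In experiment 1, 6 samples were stretched at a low amplitude, labelled as a deflection of 5 to 6 mm, beside 3 unstretched samples. In experiment 2, 3 samples were stretched at a high amplitude, labelled as 7 to 8 mm, beside 3 unstretched samples. All 4 groups were the same line, with no genetic change and no agent named in the labels, so the results hold for 1 line. Each amplitude was run in 1 experiment, so amplitude and experiment cannot be told apart, and each stretched group was compared with its own unstretched samples. The study used stretch as a culture model of raised glomerular pressure. The labels do not say whether the samples of a group were separate cultures, so p-values measure the spread between these samples, which may be technical.

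Podocytes are the epithelial cells whose foot processes wrap the glomerular capillaries. Bundled actin filaments hold the foot processes in shape, and inherited defects of several actin regulators cause proteinuria and focal segmental glomerulosclerosis. In this set, the alpha-actinins cross-link filaments, synaptopodin, palladin and LIMA1 bind and stabilise bundles, INF2 nucleates and severs filaments, MYO1E links actin to membranes, anillin scaffolds actin with septins, and ARHGDIA holds small GTPases inactive in the cytosol.

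The sequences that bear on the isoform results were the pair of alternative exons of Actn1 and the promoters of the genes whose levels or start sites are described below. Exon 19 of the Actn1-201 model is 81 bases long and lies at chr12:80170686-80170766 on the minus strand, and exon 19 of Actn1-202 is 66 bases long and lies at chr12:80170183-80170248 on the minus strand (GENCODE M21, GRCm38). Both exons are coding, hold 27 and 22 codons and replace each other in the calcium-binding EF-hand part of the protein. The longer one is known as the non-muscle form and the shorter one as the smooth muscle form. Each is shown 5′ to 3′ with the exon in capitals between 20 bases of the shared neighbouring exons.
Actn1-201 exon 19: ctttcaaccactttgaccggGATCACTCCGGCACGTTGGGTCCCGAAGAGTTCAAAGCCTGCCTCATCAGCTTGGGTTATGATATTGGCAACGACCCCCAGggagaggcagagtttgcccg
Actn1-202 exon 19: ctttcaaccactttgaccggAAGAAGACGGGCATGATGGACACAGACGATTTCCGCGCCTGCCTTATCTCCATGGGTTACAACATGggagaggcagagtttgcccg
The capitals show that the 2 forms differ along the exon and rejoin the same frame.

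The 250 bases before the start site were taken from RefSeq (GRCm38.p6) and searched on both strands for the CArG box, the binding motif of the serum response factor SRF, and for GGAATG, a binding motif of the TEAD factors. Promoters were given for 8 of the 9 genes, 12 in all, and none for Synpo. The promoters of both alpha-actinins are shown because the results below turn on their ratio, that of Myo1e because of its motif, and those of Lima1 and Palld because they set which protein form is made. Capitals mark a motif match.
Actn4, chr7:28962333-28962582, minus strand: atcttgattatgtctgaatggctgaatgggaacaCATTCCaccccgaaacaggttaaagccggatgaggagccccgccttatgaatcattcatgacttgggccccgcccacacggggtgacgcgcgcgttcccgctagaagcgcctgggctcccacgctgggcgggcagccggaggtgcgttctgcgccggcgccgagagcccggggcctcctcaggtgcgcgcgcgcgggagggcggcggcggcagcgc
Actn1, chr12:80260364-80260613, minus strand: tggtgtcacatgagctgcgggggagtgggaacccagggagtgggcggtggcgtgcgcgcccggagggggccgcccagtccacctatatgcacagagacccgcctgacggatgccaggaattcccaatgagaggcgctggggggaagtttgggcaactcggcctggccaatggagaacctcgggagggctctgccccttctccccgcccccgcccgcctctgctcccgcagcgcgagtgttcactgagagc
Myo1e, chr9:70207100-70207349, plus strand: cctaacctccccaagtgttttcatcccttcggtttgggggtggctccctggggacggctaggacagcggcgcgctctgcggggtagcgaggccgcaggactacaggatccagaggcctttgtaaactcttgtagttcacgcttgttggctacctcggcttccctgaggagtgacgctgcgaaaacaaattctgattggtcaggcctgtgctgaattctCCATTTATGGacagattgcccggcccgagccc
Lima1 before Lima1-202, chr15:99820150-99820399, minus strand: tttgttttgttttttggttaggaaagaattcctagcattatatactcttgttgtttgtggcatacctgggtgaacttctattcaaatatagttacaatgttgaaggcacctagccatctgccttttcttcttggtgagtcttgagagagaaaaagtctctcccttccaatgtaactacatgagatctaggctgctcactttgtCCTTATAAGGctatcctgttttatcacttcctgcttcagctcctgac
Palld before Palld-203, chr8:61760090-61760339, minus strand: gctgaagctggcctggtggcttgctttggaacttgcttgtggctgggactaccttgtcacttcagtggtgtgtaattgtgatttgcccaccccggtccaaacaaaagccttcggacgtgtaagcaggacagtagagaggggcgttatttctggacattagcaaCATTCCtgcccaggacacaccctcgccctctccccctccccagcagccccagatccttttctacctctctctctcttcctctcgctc
Palld before Palld-202, chr8:61591140-61591389, minus strand: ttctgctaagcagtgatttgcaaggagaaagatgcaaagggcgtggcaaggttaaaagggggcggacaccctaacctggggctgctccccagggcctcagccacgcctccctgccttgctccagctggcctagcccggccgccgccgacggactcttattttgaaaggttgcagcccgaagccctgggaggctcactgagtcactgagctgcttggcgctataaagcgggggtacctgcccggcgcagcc
A CArG box lay 22 bases before the start of Myo1e and 37 bases before that of Lima1-202, and 482 of 32851 RefSeq promoters (1.467%) held one in the same window. GGAATG, read on either strand, lay 210 bases before the start of Actn4, 81 bases before that of Palld-203 and 3 times before Inf2, and 4153 promoters (12.64%) held it. The Actn1 promoter held neither string of letters. A match is a string of letters and was not measured as a bound site.

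The deposited counts summed to between 172211836 and 396658285 per sample, so counting error was small beside the spread between samples. Markers fixed for podocytes summed to between 854 and 1353 counts-per-million (CPM) in the 15 samples. Most of this came from Synpo, Kirrel and Podxl, and in experiment 1 also from Cd2ap. Cd2ap had group means of only 18.5 and 21.8 CPM in experiment 2. Nphs1, a slit diaphragm gene that defines mature podocytes, was near 0, between 0.204 and 1.00 CPM, and Tcf21, Foxc2 and Ptpro stayed at or under 0.0151 CPM. Of the 12 podocyte markers, 5 to 7 reached 1 CPM in a group. The parietal epithelial list, carried mostly by Pax2 and Pax8, summed to between 330 and 613 CPM, and the mesangial list to between 56.5 and 165 CPM. The tubule list was carried by Lrp2 alone, which ranged from 249 to 1088 CPM, while leukocyte and fibroblast lists summed to at most 2.23 CPM. The third unstretched sample of experiment 2 stood apart from the other two of its group, and the levels compared in experiment 2 and between experiments are also given without it.

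Levels per length were read from transcripts-per-million (TPM), summed over the transcripts of a gene. In unstretched cells of experiment 1 the order was Actn4 at 421 ± 40.0 TPM (SD, n = 3), Arhgdia at 351 ± 62.7, Actn1 at 339 ± 53.5, Palld at 158 ± 3.32, Inf2 at 141 ± 17.0, Lima1 at 136 ± 19.2, Synpo at 134 ± 4.76, Anln at 94.8 ± 19.4 and Myo1e at 36.8 ± 0.718. The ranges of neighbours in this order overlapped except between Actn1 and Palld, Palld and Inf2, Synpo and Anln, and Anln and Myo1e. In unstretched cells of experiment 2 the order was Arhgdia at 563 ± 99.2 TPM (n = 3), Actn4 at 503 ± 41.1, Actn1 at 340.4 ± 21.5, Inf2 at 178 ± 29.3, Synpo at 172 ± 11.96, Palld at 102 ± 40.1, Lima1 at 65.4 ± 22.6, Myo1e at 31.0 ± 6.83 and Anln at 27.2 ± 16.2. Here the ranges overlapped between Arhgdia and Actn4, Inf2 and Synpo, Palld and Lima1, and Myo1e and Anln.

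In both stretched groups Actn1 took the first place by mean TPM. After low stretch it stood at 540 ± 116 TPM (n = 6), ahead of Actn4 at 485 ± 86.8 and Arhgdia at 385 ± 64.6, then Inf2 at 156 ± 14.2, Palld at 153 ± 20.1, Synpo at 143 ± 41.6, Lima1 at 136 ± 22.1, Anln at 79.4 ± 10.9 and Myo1e at 38.7 ± 1.99. After high stretch Actn1 stood at 765 ± 112 TPM (n = 3), ahead of Actn4 at 678 ± 22.2 and Arhgdia at 634 ± 57.5, then Inf2 at 254 ± 18.9, Synpo at 164 ± 30.0, Palld at 112 ± 23.0, Lima1 at 76.9 ± 19.1, Myo1e at 37.8 ± 6.65 and Anln at 20.9 ± 6.80. In both groups the ranges of Actn1 and Actn4 overlapped, as did those of Actn4 and Arhgdia. Within each sample of the low-stretch group Actn1 was above Actn4.

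Across samples, the genes were compared as CPM after TMM scaling, with log2 fold changes, standard errors and Benjamini-Hochberg adjusted p-values from edgeR's quasi-likelihood test over all genes tested, called at an adjusted p under 0.05. Fitted without a block, Actn1 was the 1 of these genes that rose under stretch, by 2.32-fold after high stretch. It was higher by 1.71-fold after low stretch, with every stretched sample above every unstretched one, but its adjusted p there was 0.0549. Smaller differences in the same direction in Actn4, Inf2 and Myo1e did not pass the test. Synpo and Anln had log2 fold changes between -0.16 and 0.20, and Palld of 0.06 and 0.27, none of which passed. In low stretch 0 of 9 genes passed, against 5.45% of the 21672 genes tested (1.85% higher and 3.6% lower). In high stretch 1 of 9 passed, against 3.47% of the 18524 genes tested (1.31% higher and 2.16% lower). For low stretch, 3 of the 9 had an unadjusted p under 0.05, and DESeq2 called 2, Actn1 and Myo1e. Over all genes those shares were 23.6% and 7.02%. The low-stretch count changed when the sets of neighbouring sample codes described below were fitted as a block, which called 5 of 9 genes, all higher, where 28.2% of all genes were called. In bulk RNA, fewer cells of a type and less RNA per cell cannot be told apart.

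**Figure D1:**
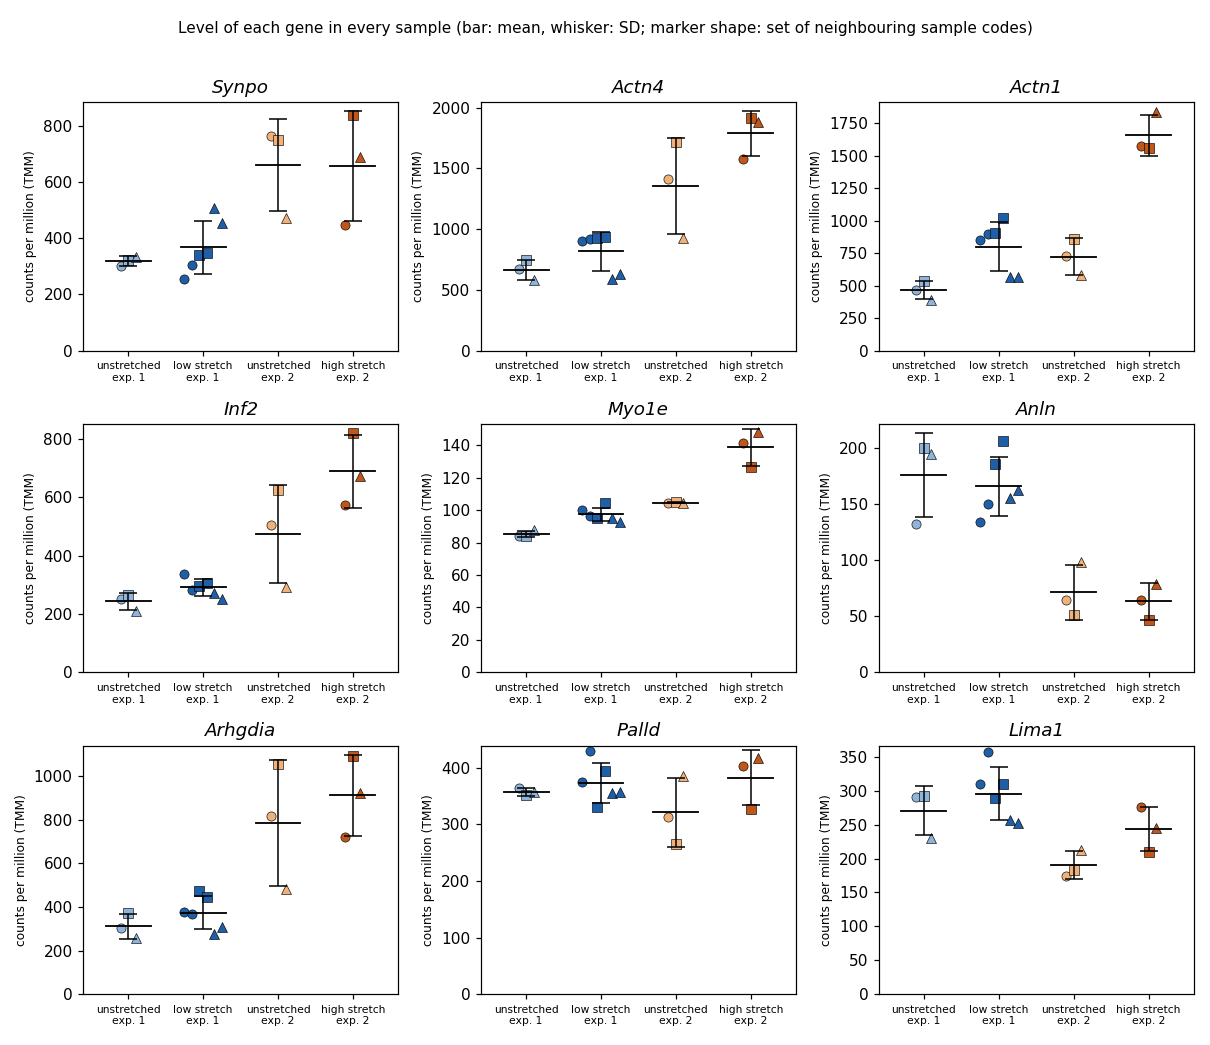
Each panel plots 1 gene, with CPM after TMM scaling on the vertical axis and the 4 groups on the horizontal axis. Points are samples, shaped by their set of neighbouring sample codes, with the mean and SD as bar and whisker. All 3 high-stretch samples of Actn1 lie between 1555 and 1839 CPM, above the 583 to 862 CPM of their unstretched samples.

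Actn1 (ENSMUSG00000015143) encodes alpha-actinin-1, which cross-links filaments in stress fibres and at focal adhesions. In unstretched cells of experiment 1 it stood at 467, 535 and 392 CPM. The 6 low-stretch samples ran from 566 through a median of 873 to 1017 CPM. All 6 lay above all 3 unstretched samples, with the fifth and sixth replicates lowest. The log2 fold change was 0.78 (SE 0.21) with an adjusted p of 0.0549 (edgeR). This call turned on single libraries: the adjusted p was 0.0245 without the fifth low-stretch replicate and 0.0333 without the sixth, and lay between 0.0720 and 0.248 in the other 7 leave-one-out fits.

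In experiment 2, Actn1 stood at 724, 862 and 583 CPM in the unstretched and at 1576, 1555 and 1839 CPM in the high-stretch samples. The groups were far apart, and even the lowest stretched sample was above the highest unstretched one. The log2 fold change was 1.22 (SE 0.20) with an adjusted p of 0.0207 (edgeR). The fold kept its size in all 6 leave-one-out fits, from 1.12 to 1.37 on the log2 scale, while the adjusted p rose to 0.0963 without the first stretched, 0.122 without the third stretched and 0.119 without the first unstretched replicate. Without the unstretched sample that stood apart, the log2 fold change was 1.12 with an adjusted p of 0.00343.

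Actn4 (ENSMUSG00000054808) encodes alpha-actinin-4, the main alpha-actinin of podocytes, in which dominant mutations cause focal segmental glomerulosclerosis. It stood at 667, 747 and 577 CPM in unstretched cells of experiment 1. Low-stretch samples ran from 585 through 908 to 936 CPM. Replicates 1 to 4 were above all unstretched samples, and the fifth and sixth lay within their range. The resulting log2 fold change was 0.29 (SE 0.18, adjusted p = 0.347, edgeR). In experiment 2 the unstretched samples stood at 1409, 1714 and 929.8 CPM and the high-stretch samples at 1575, 1911 and 1881 CPM. The second unstretched sample lay within the stretched range, and the other 2 lay below it. The log2 fold change was 0.43 (SE 0.24, adjusted p = 0.517), and 0.25 without the third unstretched replicate, the lowest of its group.

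The ratio of the 2 alpha-actinins, Actn4 TPM divided by Actn1 TPM, separated stretched from unstretched samples in both experiments. It was 1.26, 1.17 and 1.33 in the unstretched samples of experiment 1. The low-stretch samples ran from 0.788 to 0.961, with a mean of 0.906 ± 0.0609 (SD, n = 6) against 1.25 ± 0.0839 (n = 3). With TPM summed over all models, every unstretched sample had more Actn4 than Actn1 per length, and every low-stretch sample had less. From the most abundant transcript of each gene, the ratio was 1.04 and 1.10 in the first and sixth low-stretch replicates. It was 0.932 to 0.983 in the others. The log2 difference was -0.47, and an exact two-sided permutation test gave p = 0.0238, the smallest p that 84 arrangements allow.

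In experiment 2 the ratio was 1.53, 1.60 and 1.32 in unstretched samples, and 0.852, 1.03 and 0.810 in high-stretch samples. The means were 1.48 ± 0.147 (n = 3) and 0.898 ± 0.117 (n = 3), and the groups did not overlap. The log2 difference was -0.73, with an exact two-sided permutation p of 0.1, the smallest that 3 against 3 samples allow. Without the third unstretched replicate the difference was -0.81. Taken from gene counts, from coding transcripts alone or from the most abundant transcript of each gene, the log2 difference lay between -0.59 and -0.47 in low stretch and between -0.96 and -0.74 in high stretch. The coding sequences of Actn1-201 and Actn4-201 were identical at 80.48% of 2674 aligned bases, and the longest identical stretch of the 2 transcripts was 65 bases. Other Actn4 models were not aligned. How reads that match both genes were treated is not given in the sources used here.

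**Figure D2:**
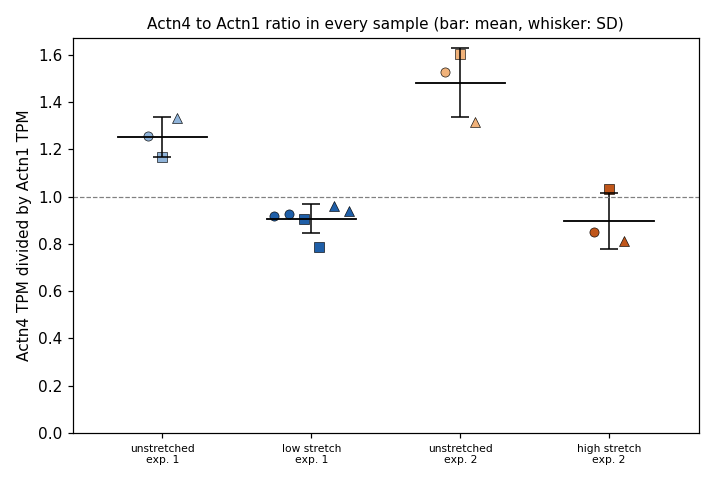
The vertical axis is the ratio of Actn4 TPM to Actn1 TPM in each sample and the horizontal axis the 4 groups, with bars for means, whiskers for SD and a dashed line at equal levels. All 6 unstretched samples lie between 1.17 and 1.60, and all 9 stretched samples between 0.788 and 1.03.

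Synpo (ENSMUSG00000043079) encodes synaptopodin, a proline-rich actin-associated protein of foot processes that binds alpha-actinin. In unstretched cells of experiment 1 it stood at 302, 321 and 334 CPM. Low-stretch samples ran from 256 through 344 to 509 CPM. The first stretched replicate lay below the unstretched samples, the second within them and the other 4 above them. Together these gave a log2 fold change of 0.20 (SE 0.19, adjusted p = 0.545, edgeR). In experiment 2 the unstretched samples stood at 764, 749 and 472 CPM and the high-stretch samples at 447, 837 and 689 CPM. The lowest and the highest sample of the experiment were both stretched, and the log2 fold change was 0.01 (SE 0.27, adjusted p = 0.994), with a sign that turned negative under other scalings and was -0.16 without the third unstretched replicate.

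Palld (ENSMUSG00000058056) encodes palladin, an immunoglobulin-domain protein that cross-links filaments and binds alpha-actinin. It stood at 365, 351 and 357 CPM in unstretched cells of experiment 1. Low-stretch samples ran from 330.2 through 366 to 430.4 CPM, around the unstretched ones. Their log2 fold change was 0.06 (SE 0.09, adjusted p = 0.724, edgeR), and it was -0.06 when fitted on TPM. In experiment 2 unstretched samples stood at 314, 265 and 385 CPM and high-stretch samples at 404, 328 and 417 CPM. These overlapped, and the log2 fold change was 0.27 (SE 0.21, adjusted p = 0.696), and 0.46 without the third unstretched replicate (adjusted p = 0.168).

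Lima1 (ENSMUSG00000023022) encodes EPLIN, a LIM domain protein that bundles filaments and slows their depolymerisation. It stood at 290.5, 292 and 229.9 CPM in unstretched and between 253 and 357 CPM, with a median of 299, in low-stretch samples. The groups overlapped, with a log2 fold change of 0.12 (SE 0.13, adjusted p = 0.599, edgeR) that was -0.0038 when fitted on TPM. Unstretched samples of experiment 2 stood at 174, 183 and 213 CPM and high-stretch samples at 276, 210.4 and 246 CPM. Of the stretched samples, the second lay within the unstretched range and the other 2 above it. Their log2 fold change was 0.38 (SE 0.19, adjusted p = 0.435), and 0.51 without the third unstretched replicate (adjusted p = 0.124).

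Inf2 (ENSMUSG00000037679) encodes the inverted formin INF2, in which dominant mutations cause glomerulosclerosis. It stood at 252, 267 and 212 CPM in unstretched and between 252 and 338 CPM, with a median of 289.5, in low-stretch samples. The sixth stretched replicate lay within the unstretched range and the other 5 above it, with a log2 fold change of 0.25 (SE 0.11, adjusted p = 0.194, edgeR). Levels in experiment 2 were 504, 626 and 293 CPM in unstretched and 573, 822 and 674 CPM in high-stretch samples. The second unstretched sample lay within the stretched range, and the third, the sample that stood apart, lay far below it. The log2 fold change was 0.56 (SE 0.28, adjusted p = 0.438), and 0.34 without that sample.

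Myo1e (ENSMUSG00000032220) encodes a class I myosin that podocytes need for an intact filtration barrier. Unstretched replicates lay close together, at 84.0, 84.0 and 87.6 CPM in experiment 1 and 104, 105 and 105 CPM in experiment 2. Low-stretch samples ran from 93.0 through 96.02 to 104 CPM, and high-stretch samples stood at 141, 126 and 148 CPM. In CPM, neither stretched group overlapped its unstretched group. Both pairs overlapped in TPM, at 35.3 to 40.7 in low-stretch against 36.1 to 37.6 in unstretched samples. In experiment 2 high-stretch samples ran from 30.3 to 43.0 TPM against 25.7 to 38.7. The log2 fold changes were 0.19 (SE 0.06, adjusted p = 0.0951, edgeR) and 0.43 (SE 0.16, adjusted p = 0.242), the latter 0.46 without the third unstretched replicate (adjusted p = 0.126). Actn1 and Myo1e were the 2 of 9 genes whose groups did not overlap in CPM, in each stretch comparison. Over all genes, 15.3% did not overlap in low stretch (7.81% higher) and 20.6% in high stretch (9.97% higher).

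Anln (ENSMUSG00000036777) encodes anillin, which organises actin, myosin and septins in the contractile ring of dividing cells and is mutated in familial glomerulosclerosis. It stood at 132, 199.6 and 195 CPM in unstretched and between 134 and 206 CPM, with a median of 159, in low-stretch samples. The groups overlapped, with a log2 fold change of -0.09 (SE 0.16, adjusted p = 0.766, edgeR). In experiment 2 it stood at 64.6, 50.7 and 98.1 CPM in unstretched and at 64.5, 46.2 and 78.9 CPM in high-stretch samples. The groups overlapped almost wholly, and the log2 fold change was -0.16 (SE 0.30, adjusted p = 0.912), and 0.19 without the third unstretched replicate.

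Arhgdia (ENSMUSG00000025132) encodes a GDP dissociation inhibitor of small GTPases, whose loss causes nephrotic syndrome. It stood at 302, 373 and 259 CPM in unstretched and between 274 and 473 CPM, with a median of 373, in low-stretch samples. The groups overlapped here too, with a log2 fold change of 0.26 (SE 0.18, adjusted p = 0.421, edgeR). Levels in experiment 2 were 817, 1059 and 483 CPM in unstretched and 721, 1094 and 923 CPM in high-stretch samples. The third unstretched sample was again far below the rest. With all 6 samples the log2 fold change was 0.23 (SE 0.29, adjusted p = 0.853), and 0.01 without that sample.

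**Figure D3:**
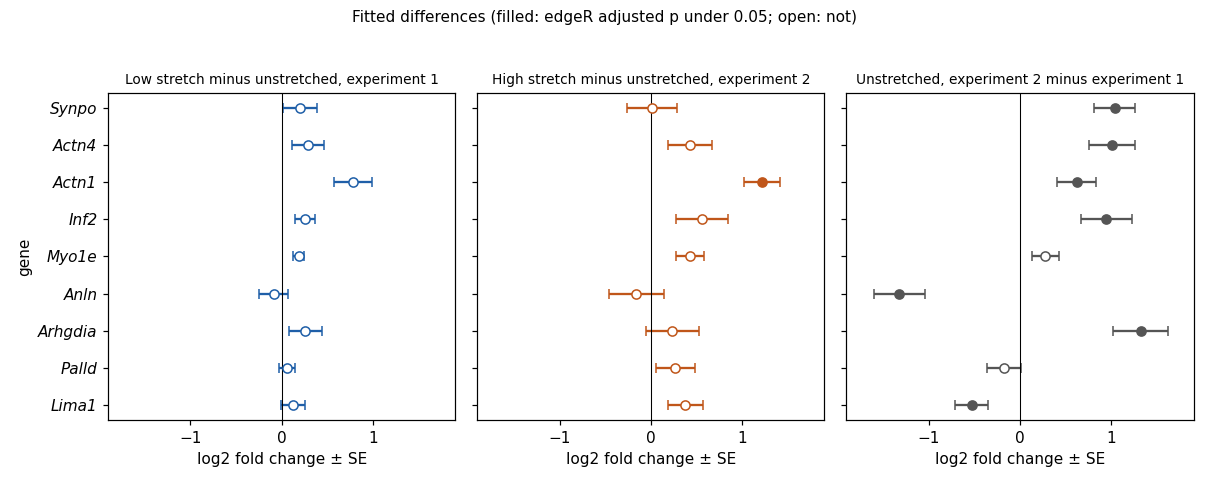
Each panel plots the fitted log2 fold change of the 9 genes with its SE for 1 comparison, filled where the edgeR adjusted p was under 0.05. Actn1 at 1.22 is the 1 filled point under high stretch, low stretch has none, and 7 of 9 points are filled between the unstretched groups.

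The sample codes in the labels fall into sets of neighbours, each with 1 unstretched sample and its stretched samples, 3 sets in each experiment. The labels do not say what a set was. In experiment 1, stretched and unstretched samples of 1 set deviated together from their group means over genes, with correlations of 0.328 to 0.570, against -0.520 to -0.0521 between sets. In experiment 2 those of 1 set correlated at -0.163 to 0.450, against -0.541 to 0.443 between sets. Deviations from a group mean cancel over the group, so values within and between sets are not independent. Within sets, Actn1 was higher in 6 of 6 low-stretch and 3 of 3 high-stretch samples than in the unstretched sample of the set, with set means higher by 0.54 to 0.90 and by 0.85 to 1.66 on the log2 scale. Actn4, Inf2 and Myo1e were also higher in 6 of 6 and 3 of 3 samples. Arhgdia was higher in 6 of 6 and 2 of 3, Lima1 in 5 of 6 and 3 of 3, Palld in 3 of 6 and 3 of 3, Synpo in 5 of 6 and 2 of 3, and Anln in 3 of 6 and 0 of 3. The share of all genes with such agreement within sets was not counted, so these tallies are not a result particular to the 9 genes. With the set as a block, 5 of 9 genes rose after low stretch, where 28.2% of all genes tested were called and 13.7% were called higher.

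For those 5 genes, the log2 fold changes under the set block were 0.75 for Actn1 (adjusted p = 0.000103, edgeR), 0.27 for Actn4 (adjusted p = 0.0194), 0.25 for Inf2 (adjusted p = 0.0164), 0.25 for Arhgdia (adjusted p = 0.0132) and 0.19 for Myo1e (adjusted p = 0.0189). The third set of experiment 1, which holds the fifth and sixth stretched replicates, had the smallest difference in Actn1 and Actn4 and the largest in Synpo. In high stretch the same block left Actn1 as the 1 gene called, where 8.35% of all genes were called and 3.31% were called higher.

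**Figure D4:**
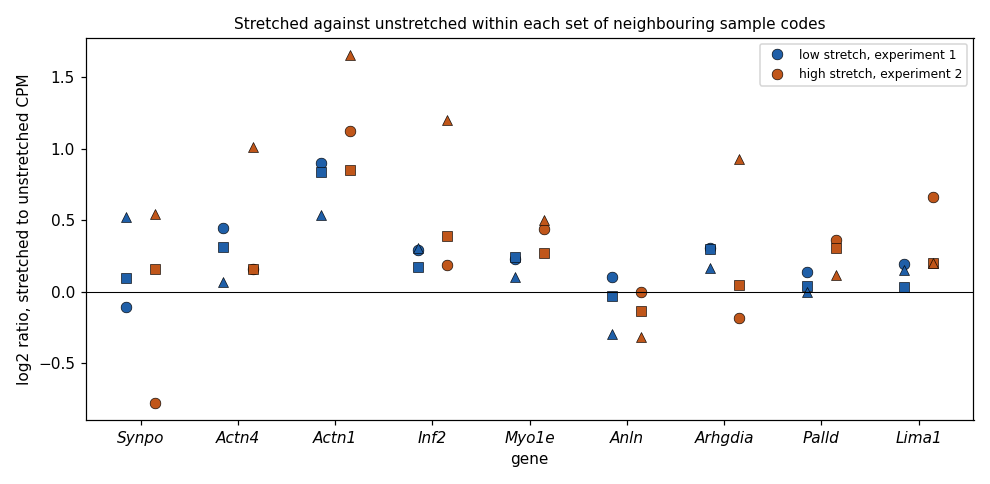
The vertical axis is the log2 ratio of mean stretched to unstretched CPM within 1 set of neighbouring sample codes, by gene, for 3 sets per experiment told apart by marker shape. Actn1 lies between 0.54 and 1.66 in all 6 sets, while Synpo spans -0.77 to 0.55.

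The 2 stretch effects were compared by the interaction term over all 15 samples. Of the 9 genes, 0 passed and 0 had an unadjusted p under 0.05 in edgeR, DESeq2 also called 0, and over all genes 0% were called and 2.48% had an unadjusted p under 0.05. For Actn1 the high-stretch effect was larger by 0.41 on the log2 scale (SE 0.29, unadjusted p = 0.175). The test had 3 unstretched samples on each side, and a difference of that size was within its error.

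More genes passed between the unstretched cells of the 2 experiments than under stretch. Of the 9 genes 7 passed, against 62.5% of all genes tested (29.7% higher and 32.7% lower), and the groups of 8 did not overlap, against 72.9%. Synpo, Actn4, Actn1, Inf2 and Arhgdia were higher in experiment 2, by 2.05-, 2.01-, 1.54-, 1.93- and 2.50-fold. Anln, at 0.401 of its level in experiment 1, and Lima1, at 0.693, were lower. Myo1e (log2 fold change 0.28, adjusted p = 0.131, edgeR) and Palld (-0.17, adjusted p = 0.439) did not pass. Without the third unstretched replicate of experiment 2, 8 genes passed, with folds of 2.27 for Synpo, 2.25 for Actn4, 1.63 for Actn1, 2.22 for Inf2, 2.88 for Arhgdia, 0.315 for Anln and 0.631 for Lima1, and Palld joined them at 0.777 (adjusted p = 0.0235, edgeR).

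These baseline values depended on scaling. The TMM factors were 1.05 to 1.15 in experiment 1 and 0.784 to 1.04 in experiment 2. With library totals or TPM in their place, chosen after seeing the data, the median log2 difference of all genes moved from -0.07 to -0.39 and -0.44. The number of genes passing moved to 5 with library totals and 4 with TPM. Synpo, Arhgdia, Anln and Lima1 passed under all 3 scalings with the same direction. Actn1 was 0.62, 0.26 and 0.02 higher on the log2 scale, the latter 2 not passing, and Myo1e turned to -0.05 and -0.27. The share of mitochondrial counts also differed, at 3.55% to 5.21% in experiment 1 and 1.14% to 2.60% in experiment 2. Its part in the difference was not tested.

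At the level of transcripts, shares of a gene's TPM were tested on log2 ratios with limma. Of 17 member transcripts tested in each comparison, 0 passed in either. The count at an unadjusted p under 0.05 was 3 in low stretch and 3 in high stretch, and the lowest adjusted p was 0.361 and 0.575. Over all transcripts, 0.0145% were called in low stretch and 0% in high stretch, and 10% and 8.15% had an unadjusted p under 0.05. The shares depend on the annotated models, several of which are incomplete. Where shares of a transcript are said not to overlap, the rate over all transcripts was not counted. For levels of all genes, groups did not overlap in 15.3% in low stretch and 20.6% in high stretch.

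Actn1 was carried by the 2 models that differ in the exons printed above. Actn1-202, with the 66-base exon, took 57.5%, 56.2% and 53.1% of Actn1 TPM in unstretched cells of experiment 1 and 57.0% to 61.5% after low stretch. In experiment 2 it took 59.9%, 61.3% and 59.1% in unstretched and 66.5%, 62.9% and 66.1% in high-stretch cells. Only the high-stretch groups did not overlap. The mean share was 2.96 points higher after low stretch (adjusted p = 0.554, limma) and 5.07 points higher after high stretch (adjusted p = 0.603). Actn1-201, with the 81-base exon, had 35.4% ± 1.42 (n = 3) in unstretched and 33.0% ± 0.465 (n = 6) in low-stretch cells, and 36.9% ± 1.09 (n = 3) against 30.9% ± 2.95 (n = 3) in experiment 2. Those groups did not overlap in either experiment, and the test gave an adjusted p of 0.496 and 0.575. The Actn1-202 model is 2664 bases long and has almost no untranslated sequence, while Actn1-201 is 3734 bases long, so the absolute shares rest on models of unequal completeness.

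Mean TPM of both forms was higher after stretch. That of Actn1-202 was 189 in unstretched and 316 in low-stretch cells, and 204 against 499.8 in experiment 2. Actn1-201 went from 119 to 178 and from 125 to 234. For Actn4, Actn4-201, which codes for 912 residues, took 66.7% ± 4.21 of the TPM in unstretched and 64.4% ± 3.81 in low-stretch cells, and 79.1% ± 5.00 against 72.8% ± 4.81 in experiment 2. The non-coding Actn4-206 took 17.2% to 21.4% in the group means, and the incomplete Actn4-204 took 2.49% to 12.2%.

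Palld makes proteins of different length from separate promoters. Palld-202, from the most downstream of 3 promoters, codes for 663 residues, and Palld-203, from the middle promoter, for 1002. Palld-202 took 72.4% ± 3.44 in unstretched and 74.2% ± 1.95 in low-stretch cells. In experiment 2 it took 67.1%, 66.1% and 65.4% in unstretched and 77.3%, 71.8% and 70.1% in high-stretch cells, which did not overlap. That gap of 6.88 points had an adjusted p of 0.578 (limma). Palld-206, a model from the same promoter, took 8.72% in unstretched and 6.24% in high-stretch cells of experiment 2. The gap in Palld-202 is thus not the gap of its promoter. Palld-203 took 25.1%, 23.7%, 24.8% and 20.3% in unstretched, low-stretch, unstretched and high-stretch cells in that order. The long forms of the upstream promoter, Palld-201 and Palld-204, took at most 0.0151% in any group mean.

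Lima1 was mostly the shorter EPLIN-alpha form. Lima1-202, which starts at the internal promoter with the CArG box and codes for 593 residues, took 76.7% ± 3.54 in unstretched and 77.1% ± 2.60 in low-stretch cells, and 75.6% ± 0.738 against 79.2% ± 0.868 in experiment 2. The last pair did not overlap (adjusted p = 0.635, limma). Lima1-201, the 753-residue EPLIN-beta form, took 16.4% to 18.9% in the group means. The largest difference after low stretch was that of Lima1-204, at 2.24% against 2.94%, which was not tested.

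The Synpo models Synpo-201 and Synpo-205 share 1 coding sequence of 2703 bases, and Synpo-206 has a longer one of 3300 bases. Synpo-201 took 56.9% ± 0.424 in unstretched and 59.5% ± 6.20 in low-stretch cells. In experiment 2 it took 73.4%, 64.0% and 65.2% in unstretched and 62.2%, 51.6% and 62.9% in high-stretch cells, a difference of -8.62 points in the mean with no overlap (adjusted p = 0.662, limma). Synpo-205 took 16.0% to 23.2% in the group means, Synpo-206 4.62% to 6.35% and the non-coding Synpo-204 1.57% to 11.3%. The form with the longer coding sequence was thus a small share in all 4 groups.

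The other genes had 1 dominant model or a pair of them. Inf2 was split between Inf2-201, at 43.1% to 44.8%, and the incomplete Inf2-203, at 54.3% to 55.5% in the group means. Arhgdia-202 took 96.5% to 97.5%, and Myo1e-201 took 91.3% to 93.6%. The largest differences in Myo1e were those of small models that were not tested. Myo1e-203 was 0.863 points higher after low stretch, and Myo1e-202 was 3.24 points lower after high stretch. Anln-201 took 75.4% to 78.9%, with the incomplete Anln-202 at 20.3% to 23.7%. Anln-202 had the lowest p of the member transcripts in low stretch, with a difference of -3.36 points from unstretched cells (adjusted p = 0.361, limma).

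**Figure D5:**
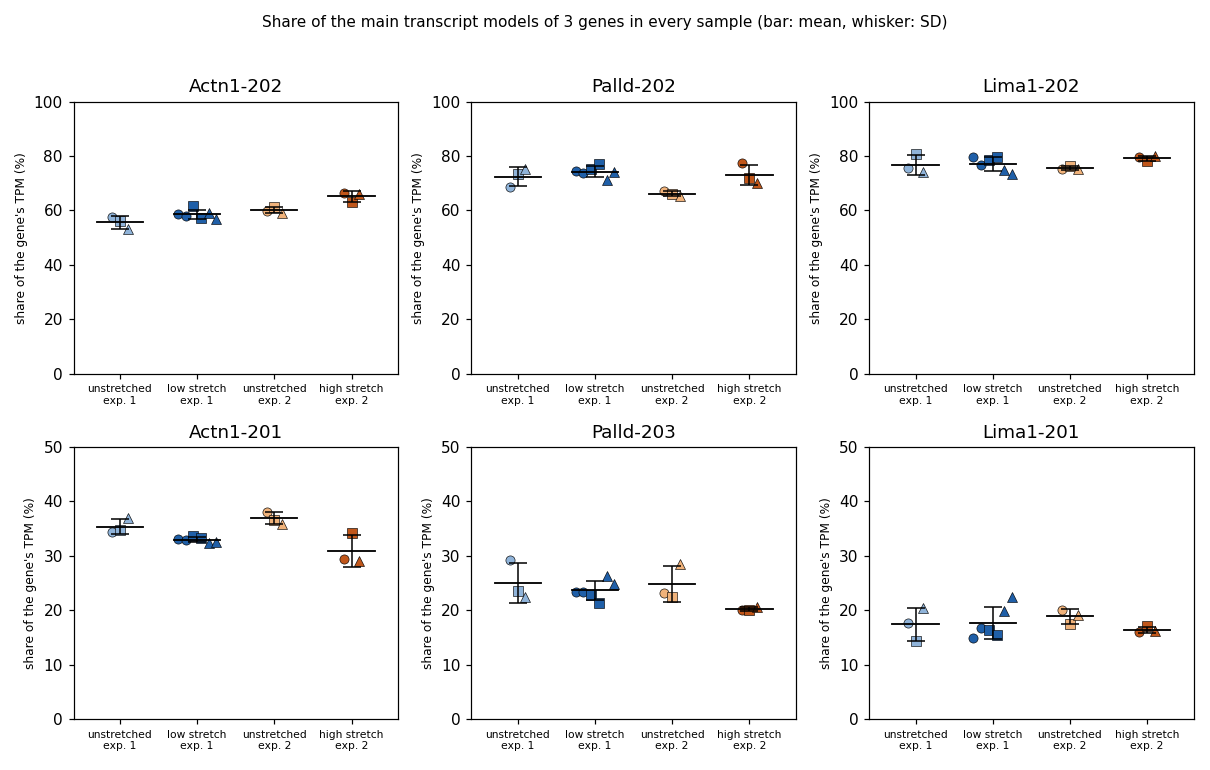
Each panel plots the share of a gene's TPM taken by 1 transcript model of Actn1, Palld or Lima1, in percent, for every sample by group, with mean and SD. The lower row has a vertical axis to 50%. High-stretch samples lie above their unstretched samples for Actn1-202, Palld-202 and Lima1-202, and below them for Actn1-201, Palld-203 and Lima1-201. Of main models not plotted, Synpo-201, Inf2-201 and Arhgdia-202 also lay below their unstretched samples, and Myo1e-201 lay above them. Shares of the models of 1 gene depend on each other, and no tested share passed.

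Genes with the most similar pattern were sought by Pearson correlation of log2 CPM over the 15 samples after the mean of each experiment was subtracted, among 12938 genes. These r values describe samples that share stretch groups, code sets and scaling. For Actn1 they were Cap1 (r = 0.986), Zdhhc14 (0.982) and Angptl2 (0.977). For Actn4 they were Acta2 (0.971), Pea15a (0.971) and Rfx1 (0.970), for Arhgdia Eno1 (0.995), Eno1b (0.993), which is a near-copy of Eno1, and Tbcd (0.993), and for Inf2 Limk2 (0.981), Capn1 (0.971) and Clip2 (0.968). For Myo1e they were Map4 (0.965), Foxk1 (0.963) and Pdcd11 (0.956). Anln followed Cep128 (0.971), Arhgap11a (0.968) and Cep55 (0.966). Lima1 followed Fbn1 (0.969), Kalrn (0.947) and Vcl (0.934), Palld followed Lpp (0.951), Fnip2 (0.942) and Mdn1 (0.941), and Synpo had the weakest match, with Gpc1 (0.935), Klhl36 (0.916) and Wfs1 (0.901).

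Among the 9 genes themselves, Actn4 and Arhgdia had the highest r (0.926), followed by Actn1 and Myo1e (0.888), Actn4 and Inf2 (0.880), and Actn4 and Actn1 (0.852). Palld and Lima1 had an r of 0.756. Synpo had r between -0.592 with Lima1 and 0.318 with Inf2.

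Related genes were described in lists by function. After low stretch, 1.85% of all genes tested were called higher and 3.6% lower, in edgeR without a block. After high stretch these shares were 1.31% and 2.16%. Of 22 tested actin bundlers and cross-linkers, 2 rose after low stretch and 0 fell, with a median log2 fold change of 0.04 against 0.01 for all genes. The 2 genes were Pls3, the cross-linker plastin 3, at 1.38-fold (adjusted p = 0.0475, edgeR), and Dbn1, the actin-binding drebrin, at 1.41-fold (adjusted p = 0.0176). After high stretch 1 of 20 rose and 0 fell (median 0.07 against -0.02), namely the actin-binding transgelin-2 gene Tagln2, at 2.77-fold (adjusted p = 0.0472).

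LIM domain proteins of stress fibres were the list with most calls. After low stretch 3 of 23 rose and 2 fell, with a median log2 fold change of 0.27. Tes, which encodes the focal adhesion protein testin, rose 2.23-fold (adjusted p = 0.0127, edgeR), Pdlim7 rose 1.75-fold (adjusted p = 0.0166), and Lmo7 fell to 0.683 of its unstretched level (adjusted p = 0.00629). The other 2, named after their values were seen, were Csrp1, which rose 2.18-fold, and Ablim1, which fell to 0.552. After high stretch 4 of 23 rose and 1 fell, with a median of 0.44. Tes rose 2.79-fold, Pdlim1 3.92-fold and Csrp2 3.68-fold, and, named after their values were seen, Mical2 rose 1.80-fold and Ablim1 fell to 0.537. These medians stood beside 0.01 and -0.02 for all genes. Of all genes, 1.85% were called higher and 3.6% lower after low stretch, and 1.31% and 2.16% after high stretch. With the set as a block, 11 rose and 4 fell after low stretch, where 13.7% of all genes were called higher and 14.5% lower. After high stretch 9 rose and 2 fell, where 3.31% of all genes were called higher and 5.03% lower. The same block gave 6 of 22 bundlers that rose and 1 that fell, and 5 of 12 actins and SRF readouts that rose after low stretch.

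Of 12 formins, Daam1 rose 1.42-fold and Fhod1 fell to 0.744 after low stretch. Of all genes, 1.85% were called higher and 3.6% lower after low stretch, and 1.31% and 2.16% after high stretch. After high stretch 0 of 11 passed in edgeR and 0 in DESeq2, 4 had an unadjusted p under 0.05 in edgeR, and the smallest adjusted p was that of Daam2, at 0.156. Over all genes in high stretch, 2705 of 18524 had an unadjusted p under 0.05 in edgeR, and DESeq2 called 1315 of 32681. Of class I myosins, 0 of 6 passed after low and 0 of 5 after high stretch in edgeR, 2 and 0 had an unadjusted p under 0.05, and DESeq2 called 1 and 0. Of the cytokinesis partners of anillin, 0 of 16 passed in either comparison in edgeR, 2 and 1 had an unadjusted p under 0.05, and DESeq2 called 0 and 0. Of the actins and SRF readouts, 0 of 12 and 1 of 11 passed in edgeR, with medians of 0.29 and 0.38, 3 and 5 had an unadjusted p under 0.05, and DESeq2 called 2 and 1. The 1 gene was Actg2, named after its values were seen, at 0.632 ± 0.234 against 0.163 ± 0.0698 CPM (n = 3 each). Acta2, smooth muscle actin, stood at 2808 ± 1017 CPM (n = 6) against 1536 ± 379 (n = 3) and at 8974 ± 2195 against 4626 ± 2327 (n = 3 each), and its adjusted p-values were 0.136 and 0.269 (edgeR).

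Of the other inherited podocyte disease genes, 0 of 31 rose and 2 fell after low stretch, and 1 of 30 rose and 3 fell after high stretch. Of all genes, 1.85% were called higher and 3.6% lower after low stretch, and 1.31% and 2.16% after high stretch. Plce1, a phospholipase C, fell to 0.257 and 0.179 of its unstretched level, and Crb2, a polarity protein, to 0.208 and 0.181. Wt1, a podocyte transcription factor, fell to 0.194 after high stretch. These 3 genes were low, with means at or under 8.13 CPM. The 1 listed gene that rose was Apol9a, named after its values were seen, at 0.847 against 0.213 CPM. Apol9a was in the list by name and is not itself an established inherited podocyte disease gene. With the set as a block, 7 of 31 fell after low stretch and 0 rose, where 14.5% of all genes were called lower. Levels of the tubule marker list, carried by Lrp2, stood at 474 to 757 CPM in stretched against 926 to 1089 in unstretched cells of experiment 1 and at 249 to 425 against 317 to 667 in experiment 2. The mesangial list stood at 56.5 to 77.2 CPM against 87.9 to 105 and at 102 to 128 against 123 to 165. The parietal epithelial list stood at 330.2 to 604 CPM against 361 to 426 and at 435 to 509.8 against 494 to 613. The glomerular endothelial list, 1 of whose 6 genes reached 1 CPM, stood at 26.8 to 35.5 against 44.7 to 46.9 and at 42.4 to 54.7 against 70.3 to 82.7. Their part in the results above was not tested.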

How the data were processed

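Poly(A) RNA of 15 SVI podocyte samples was sequenced as stranded paired-end libraries, per the labels' protocols. The authors deposited raw counts per gene. The submitters' processing notes name STAR 2.7.5c, featureCounts from Subread 2.0.0, DESeq2 1.38.3, Salmon 1.9.0 and the build mm39, with no role given. The authors deposited TPM per transcript in a table whose columns carry no depth. Strand setting and pair counting are not given in the sources used here. Groups came from the sample titles.

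Identifiers were matched to GENCODE M21 (52135 of 55416 genes, at most 0.181% of counts unmatched, and 137189 of 140789 transcripts). Coordinates are those of GRCm38, since the tables hold none. Counts were filtered, TMM-scaled and fitted with edgeR 4.0.16 (quasi-likelihood, R 4.3.3), with Benjamini-Hochberg adjustment over all genes. The samples of a comparison were fitted alone, and the interaction over all 15. Transcript usage was the log2 ratio of a transcript to the rest of its gene, with a pseudocount of 0.1 TPM, for genes with a mean of at least 1 TPM, in limma 3.58.1. Alternatives were DESeq2 1.42.0, other scalings and filters, blocks and leaving out each sample. The scripts were tested on simulated data.

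The 9 genes, the gene lists and the tests were chosen with earlier results of these data known. All 9 were described whatever their values, as were transcripts with a mean share of at least 10% in any group and the one with the largest difference in share. From each list at most 3 genes with the lowest p were named. Csrp1, Ablim1, Mical2, Actg2 and Apol9a fell outside this rule and were named after their values were seen. Some marker and list results are not reported here.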

Additional observations from a re-analysis of the deposited data

Results flagged for a closer look

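The Actn4 to Actn1 ratio of the fourth low-stretch replicate was 0.788, while the other 5 low-stretch samples lay between 0.905 and 0.961. The gap to the nearest sample was 0.675 of the range of the group, above Dixon's critical value for 6 samples. Groups were checked 26 times, and chance flags about 1 in 20. The sample had the highest Actn1 level of its group, at 1017 CPM, and without it the log2 difference of the ratio was -0.43.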

How the results depend on the processing

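For low stretch, the count of the 9 genes called moved from 0 to 2 with DESeq2, 1 with no filter, 1 with all 15 samples, 1 with the replicate block and 5 with the set block, and to between 0 and 1 when samples were left out. For high stretch it moved from 1 to 2 with all 15 samples, where Myo1e joined Actn1, and to between 0 and 1 when samples were left out. The baseline count moved from 7 to 4 with TPM and to between 4 and 8 when samples were left out, with 4 without the first unstretched replicate of either experiment. The replicate block and the set block weakened the test of the low-stretch Actn4 to Actn1 ratio, at log2 differences of -0.4513 (exact permutation p = 0.25) and -0.4688 (p = 0.0741), each the smallest p its arrangements allow. When samples were left out the difference lay between -0.5192 and -0.4224 in low stretch and between -0.8303 and -0.6569 in high stretch. Under the replicate block the count of high-stretch calls was 1. In experiment 1 replicate numbers did not pair the samples, since same-numbered samples correlated at -0.440 to 0.365. In experiment 2 same-numbered samples were those of 1 code set, and they correlated at -0.163 to 0.450, against -0.541 to 0.443 between sets. In experiment 1 samples of 1 code set correlated at 0.328 to 0.570 (mean 0.438), against -0.520 to -0.0521 between sets. The ranges within and between sets are not independent, since deviations from a group mean cancel over the group. Over all genes, 1181 were called in low stretch, 2702 with DESeq2, 640 with all 15 samples, 490 with the replicate block, 6106 with the set block and 220 to 1630 with a sample left out. In high stretch 643 were called, 1315 with DESeq2, 1050 with no filter, 414 with a mean count of at least 100, 1488 with all 15 samples, 326 with TPM, 1546 under either block and 14 to 1421 with a sample left out. In the baseline 12941 were called and 7499 with TPM.

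Reversed signs were all of values that did not pass. Synpo turned to -0.0968 in low stretch under the replicate block, and in high stretch to -0.0082 with all 15 samples, -0.0009 under either block, -0.0691 with library totals and -0.0822 with TPM. In the difference between the stretch effects, the replicate block gave 0.079 for Synpo, -0.023 for Actn4 and 0.0043 for Anln, and Arhgdia turned to 0.0074 under the set block and 0.0493 with TPM. In low stretch Palld turned to -0.0047 with library totals and -0.061 with TPM, and Lima1 to -0.0038 with TPM. The baseline of Myo1e turned to -0.0519 and -0.2669 with these scalings. Leaving out samples gave ranges across 0 for Anln (-0.2598 to 0.0289 in low stretch, -0.3384 to 0.1855 in high stretch), Synpo (-0.1678 to 0.2158 in high stretch) and Palld-202 usage (-0.0073 to 0.2293 in low stretch). For the difference between the effects they were -0.0307 to 0.3154 for Actn4, -0.2838 to 0.2871 for Anln and -0.2372 to 0.2221 for Arhgdia. The cause was not tested. Library totals and TPM as scalings were chosen after seeing the data.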
